A study of Mus musculus with 21 samples.

Results

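The CXCR2 neutrophil chemokine axis was followed here through 7 genes, chosen by name: the receptors Cxcr2 and Cxcr1, the ligands Cxcl1, Cxcl2, Cxcl3 and Cxcl5, and the growth factor Csf3. All 7 were found among the 55491 genes of the skin table and again among the 55491 genes of the lymph node table. After removal of genes with few reads, 5 of the 7 could be tested in skin (19101 genes tested) and 3 of the 7 in the nodes (16173 genes tested); Cxcr1 and Csf3 in skin, and Cxcl2, Cxcl3, Cxcl5 and Csf3 in the nodes, are given as counts only.

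The mice carried an Ifnk transgene (TG) driven by the keratin 14 promoter, which directs IFN-kappa, a type I interferon, to the epidermis; the line was made on C57Bl/6 and backcrossed to BALB/c, and BALB/c wild-type (WT) mice were the controls. Whole skin of 12-month-old mice, all labelled as untreated, gave 3 WT libraries, 2 libraries of nonlesional TG skin (NL) and 4 of lesional TG skin (L). Inguinal lymph nodes came from TG and WT mice, either untreated (NoTx, 3 libraries of each genotype) or after UVB (UVTx, 3 of each), given at 250 mJ/cm2 on 3 days per week for 2 weeks and followed by 2 weeks of observation; no age or lesion status is labelled for these mice. The labels name no mouse, sex or body site for a library, so it is not known which L and NL libraries share an animal, and p-values measure only the spread between these libraries.

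CXCR2 is a G-protein-coupled receptor by which neutrophils sense CXC chemokines that carry a glutamate-leucine-arginine motif, and mouse Cxcl1, Cxcl2, Cxcl3 and Cxcl5 belong to that group. Keratinocytes, fibroblasts and macrophages make these ligands after IL-17, IL-1, IL-36 or TNF signals, through NF-kB and through slower decay of the mRNA. Csf3 encodes G-CSF, which drives neutrophil production in the marrow, and Cxcr1 encodes a related chemokine receptor.

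The 4 ligand genes lie on the plus strand of chromosome 5 within 146.6 kb (GRCm38, GENCODE M21): Cxcl5 at chr5:90759360-90761624, Cxcl3 at chr5:90786103-90789600, Cxcl1 at chr5:90891241-90893115 and Cxcl2 at chr5:90903871-90905938. The receptors are neighbours on chromosome 1 within 40.6 kb, Cxcr2 on the plus strand at chr1:74153989-74161246 and Cxcr1 on the minus strand at chr1:74191785-74194631. Csf3 is at chr11:98701263-98703629. Cxcl1, Cxcl2 and Cxcl3 are close paralogs, so reads that fit more than 1 of them were shared out by estimation and their split is uncertain.

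The sequences just before the starts of Cxcl1, Cxcl2 and Cxcl3 are shown because these genes are close paralogs. Each is from RefSeq (GRCm38.p6, plus strand), ending before the GENCODE or the RefSeq start of the gene, whichever is upstream. Runs of 8 or more bases that all 3 upstream windows have in common are in capitals, and were found after the sequences were read. Distances below are counted from the RefSeq start, which for Cxcl1 and Cxcl2 lies downstream of the GENCODE start. They therefore include bases not printed, most of all for Cxcl2 (92 bases printed), and depend on the start chosen. They cover chr5:90891125-90891240, chr5:90903779-90903870 and chr5:90785981-90786100.
Cxcl1: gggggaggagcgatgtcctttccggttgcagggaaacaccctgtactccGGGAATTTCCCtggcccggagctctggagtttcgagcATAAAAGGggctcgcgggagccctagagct
Cxcl2: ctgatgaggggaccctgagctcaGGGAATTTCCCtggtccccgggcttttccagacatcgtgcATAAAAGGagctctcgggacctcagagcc
Cxcl3: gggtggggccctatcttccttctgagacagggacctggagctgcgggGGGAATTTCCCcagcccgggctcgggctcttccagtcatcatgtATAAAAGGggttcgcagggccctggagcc
The longer run, GGGAATTTCCC, has the form of a known NF-kB site and lay 71 to 61 bases before the RefSeq start of Cxcl1, 97 to 87 before that of Cxcl2 and 73 to 63 before that of Cxcl3. The shorter run, ATAAAAGG, has the form of a TATA box and lay 34 to 27, 57 to 50 and 29 to 22 bases before these starts. Over the 250 bases upstream in all 32851 promoter windows, searched on both strands, GGGAATTTCCC was in 14 (0.0426%), ATAAAAGG in 507 (1.54%) and both in 3 (0.00913%), which were the windows of Cxcl1, Cxcl2 and Cxcl3. Windows for 5 of the 7 genes were on hand, those of Cxcr2 and Cxcr1 holding neither run. A match of letters is a description and says nothing of binding.

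Total counts were 40499078 to 56511276 per skin library and 27599809 to 36428435 per node library. Levels are given as counts and as CPM (counts scaled to the size of the library), scaled within each tissue by edgeR's trimmed mean of M-values. A count of 0 allows up to 3 counts, which is 0.054 to 0.0742 CPM in skin and 0.081 to 0.109 CPM in the nodes, for counting error only. Ifnk itself had 0 counts in every WT skin library, 6 and 0 in NL, and 5 to 14 in L, so 1 NL library showed none at this depth; in the nodes it was at 0 throughout. L libraries stood apart in tissue content: 8 hair shaft genes summed to 5589 to 21682 CPM in L against 5.39 to 7.41 in WT and 7.43 to 19.3 in NL, and 10 skeletal muscle genes to 27.3 to 7842 CPM in L against 29941 to 41286 in WT and 27835 to 32675 in NL. The sum of 5 endothelial genes was 84.6 to 165 CPM in L, 194 to 274 in WT and 165 to 210 in NL. The nodes carried their defining lymphocyte genes, with 5 B cell genes summing to 1048 to 2019 CPM and 5 T cell genes to 1604 to 2123 CPM.

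Cxcr2 was higher in every lesional library, and was the member called in both L versus WT and L versus NL. It had 14, 30 and 16 counts in WT (libraries 8, 9 and 10), 55 and 5 in NL (libraries 2 and 3), and 1641, 343, 394 and 443 in L (libraries 4, 5, 6 and 7). Every L library was above every WT and NL library, and the WT and NL ranges overlapped. Mean levels were 13.7 CPM ± 10.8 (SD, n = 4) in L, 0.587 ± 0.656 (n = 2) in NL and 0.476 ± 0.208 (n = 3) in WT.

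Cxcr2 rose in L against WT by 4.85 ± 0.85 on the log2 scale (SE; adjusted p = 0.00272, edgeR's quasi-likelihood test), a 28.8-fold difference, and against NL by 4.51 ± 0.99 (adjusted p = 0.0139). L library 4 was 3.53-fold above the median of the other 3 L libraries, which lay close together at 8.37 CPM ± 0.357 (SD, n = 3). Without library 4 the rise was 4.13 ± 0.65 against WT (adjusted p = 0.0019) and 3.79 ± 0.75 against NL (adjusted p = 0.0088). The call against NL was lost without NL library 3 (log2 fold change 3.72, adjusted p = 0.078). In whole tissue, more or fewer cells of a type cannot be told apart from more or less RNA per cell.

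Background calling in these comparisons was broad. In L versus WT, 43.1% of tested genes passed, 23% in the upward direction, and in 25.9% every L library was above every WT library. In L versus NL, 25% passed, 13.2% upward, and in 24.7% every L library was above both NL libraries. Of the 7 members, 2 (Cxcr2 and Cxcl2) were called higher in L versus WT and 1 (Cxcr2) in L versus NL; none was called lower.

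**Figure D1:**
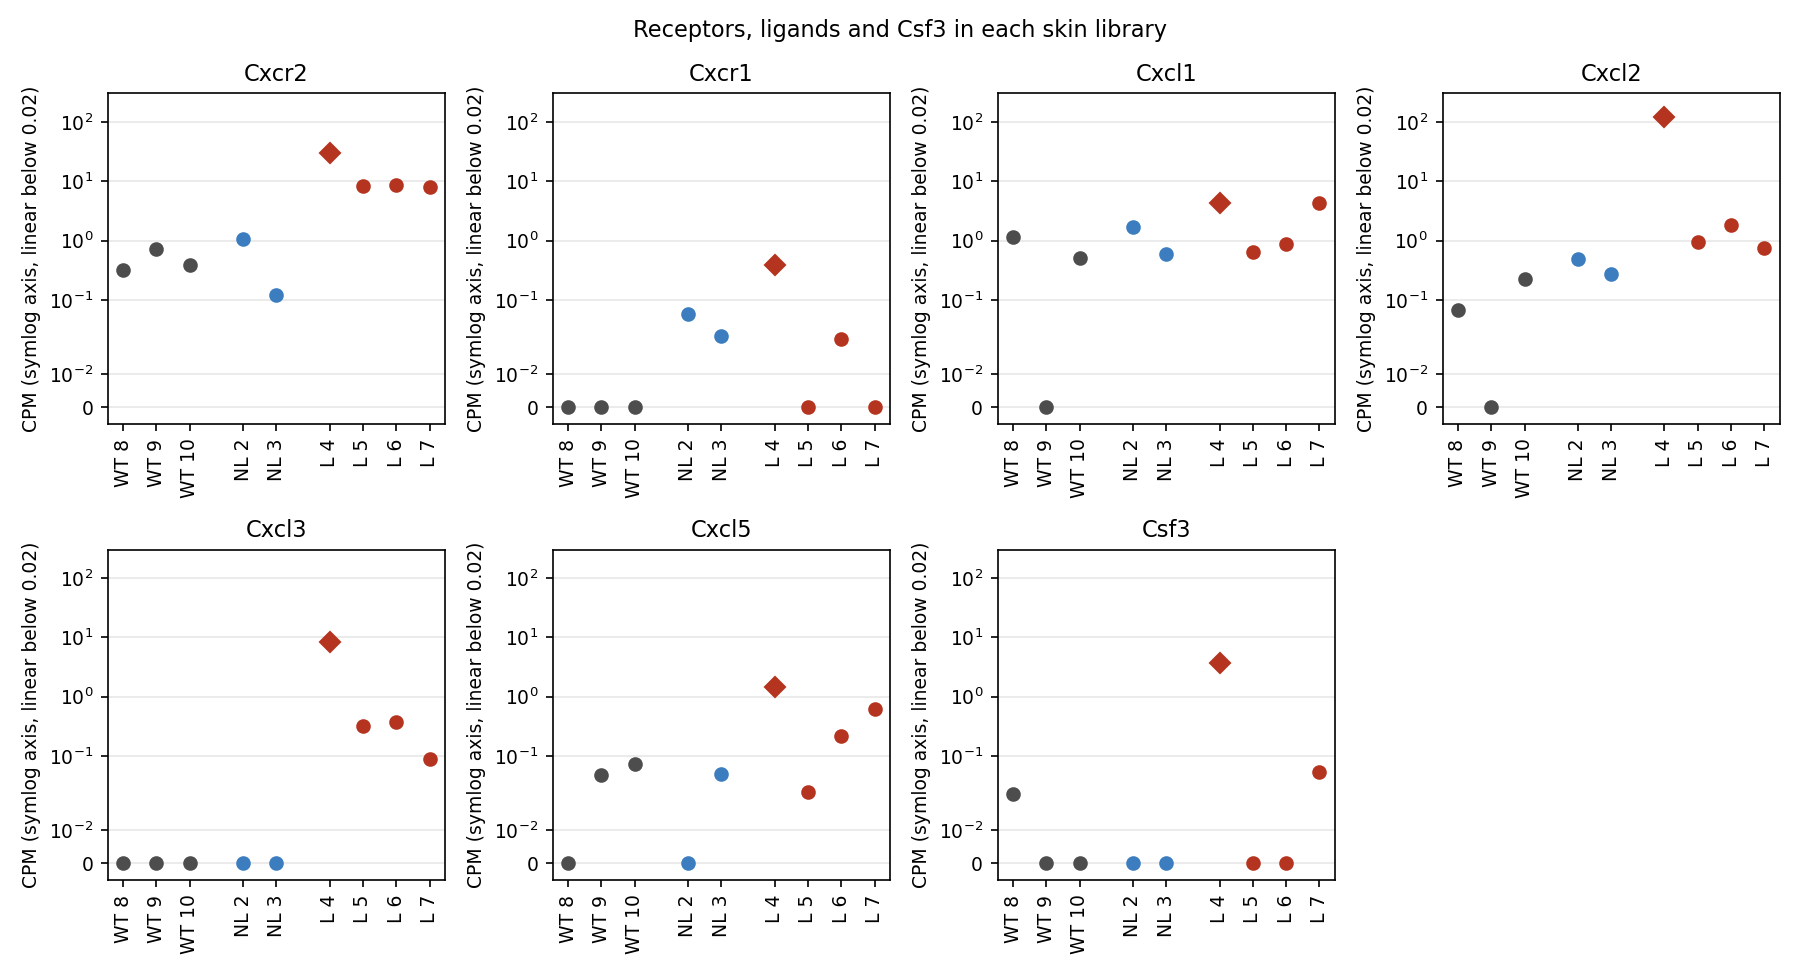
CPM of each member (vertical symlog axis, linear below 0.02) in each skin library (horizontal axis: 3 WT in grey, 2 NL in blue, 4 L in red, library 4 as a diamond). Cxcr2 is high in all 4 L libraries, at 7.98 CPM or more, while Cxcl2, Cxcl3, Cxcr1 and Csf3 have 1 L library far above the rest.

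Cxcr1, the related receptor, was barely detected in skin. It had 0 counts in all 3 WT libraries, 3 and 1 in NL, and 21, 0, 1 and 0 in L. The 21 counts of L library 4 were 95.5% of all Cxcr1 counts in L.

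Cxcl2, a ligand first known as macrophage inflammatory protein 2, held the largest count of any member, and it came from 1 library. Counts were 3, 0 and 9 in WT, 26 and 11 in NL, and 6695, 39, 82 and 42 in L. Library 4 held 97.6% of the Cxcl2 counts of lesional skin, 127-fold above the median of the other 3. Those 3 were still above every WT and NL library, at 1.17 CPM ± 0.556 (SD, n = 3) against 0.0970 ± 0.114 in WT (n = 3) and 0.383 ± 0.161 in NL (n = 2).

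Cxcl2 rose in L against WT by 8.32 ± 2.67 on the log2 scale (adjusted p = 0.0362), and by 3.58 ± 0.88 without library 4 (adjusted p = 0.0133). Leaving out any WT or NL library put the adjusted p between 0.0569 and 0.106, so the call rested on each of those 5 libraries. Against NL the fitted difference was 6.32 ± 2.76 (adjusted p = 0.13), and 1.60 ± 0.88 without library 4 (adjusted p = 0.217). DESeq2 gave no p for Cxcl2 or Cxcl3 in either comparison.

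Cxcl3, the third of the close paralogs, was listed at 0 counts in all 5 WT and NL libraries and at 462, 13, 17 and 5 counts in L. All 4 L libraries were above all others. Cxcl3 passed the filter only through its L counts, so this separation and the test depend partly on the filter. The mean of the L libraries was at least 32.3-fold higher than the WT floor of 3 counts per library, and at least 3.67-fold higher without library 4. Its adjusted p was 0.0777 against WT and 0.153 against NL, and 0.0217 and 0.0474 without library 4, with an SD within L of 0.151 CPM (n = 3) in place of 4.08 (n = 4).

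Cxcl1, the ligand known as KC, did not separate the groups. It had 50, 0 and 21 counts in WT, 89 and 24 in NL, and 239, 26, 40 and 238 in L. Libraries 4 and 7 were the high ones in L, while libraries 5 and 6 lay within the WT and NL ranges. The fitted difference was 2.20 ± 1.15 against WT (adjusted p = 0.157) and 1.15 ± 1.25 against NL (adjusted p = 0.54).

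Cxcl5, a ligand made mainly by epithelial cells, had 0, 2 and 3 counts in WT, 0 and 2 in NL, and 81, 1, 10 and 35 in L. Library 5, with 1 count, lay inside the WT range, and the other 3 L libraries were above every WT and NL library. The fitted difference was 3.81 ± 1.38 against WT (adjusted p = 0.0516) and 4.58 ± 1.76 against NL (adjusted p = 0.0889). Cxcl5 passed the filter only through its L counts, so its test depends partly on the filter. The side of the threshold depended on the setting. Without library 5 the adjusted p was 0.0168 and 0.0349, and DESeq2 gave 0.0157 and 0.0249. Without library 4 the difference was 2.82 against WT (adjusted p = 0.113) and 3.59 against NL (adjusted p = 0.139), and without 1 of the WT libraries the adjusted p against WT was 0.0956 to 0.137.

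**Figure D2:**
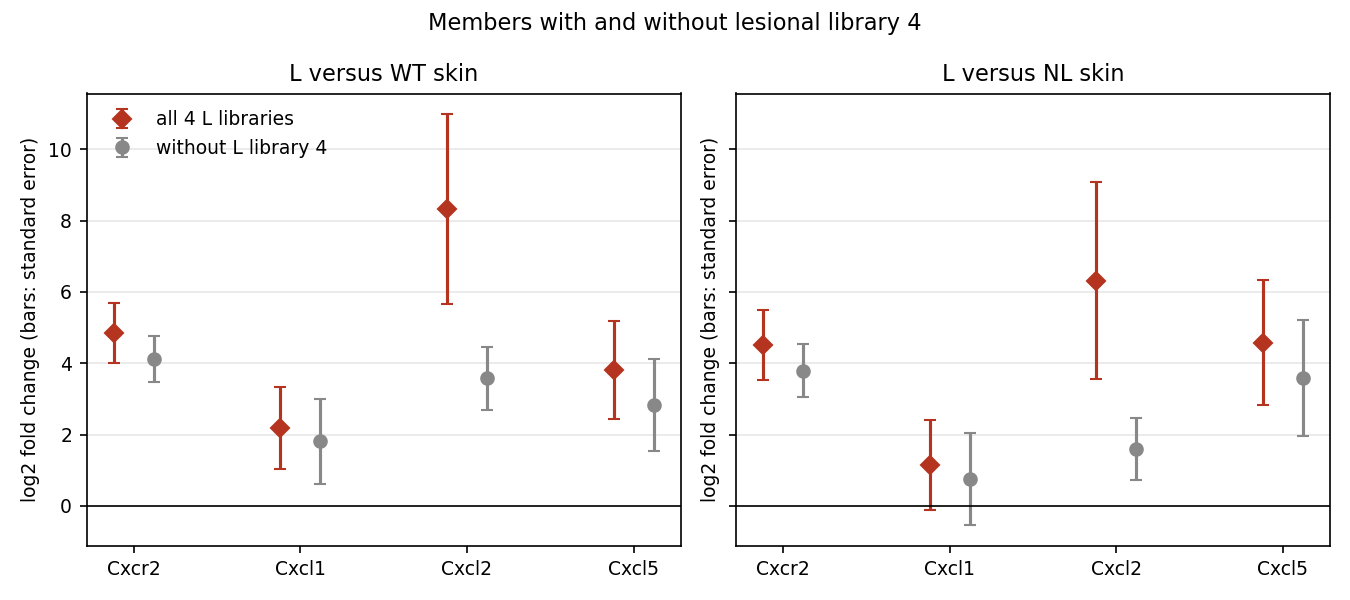
Fitted log2 fold change with its standard error (vertical axis) for Cxcr2, Cxcl1, Cxcl2 and Cxcl5 in L versus WT and L versus NL skin, with all 4 L libraries (red diamonds) and without library 4 (grey circles). Cxcl2 moves from 8.32 to 3.58 against WT, and Cxcr2 from 4.85 to 4.13; Cxcl3 is not drawn because its WT and NL libraries were at 0.

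Csf3 was detected in quantity in L library 4 alone, with 202 counts. The other L libraries had 0, 0 and 3 counts, WT had 1, 0 and 0, and both NL libraries had 0. Library 4 held 98.5% of the Csf3 counts of lesional skin.

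Levels were set against each other per kilobase of exon, counting every base in any annotated exon of the gene. For Cxcl1, Cxcl2 and Cxcl3 this length (1875, 2068 and 3498 bases) was the whole gene span, with any introns included. For Cxcr2 (3048 bases) it was shorter than the span. The order below therefore depends on the lengths used. By the median over L libraries the order was Cxcr2 (2.81 CPM per kb), Cxcl1 (1.38), Cxcl2 (0.669), Cxcl5 (0.228), Cxcl3 (0.0993), Csf3 (0.0191) and Cxcr1 (0.00739). By the mean, which follows library 4, Cxcl2 came first at 15.2 CPM per kb ± 29.2 (SD, n = 4), ahead of Cxcr2 at 4.51 ± 3.53. The SD of Cxcl2 exceeded its mean, so its place above Cxcr2 does not hold beyond the spread. With these lengths Cxcr2 in its lowest L library (2.62 CPM per kb) was above Cxcl1 in its highest (2.32). A shorter length for Cxcl1 could reverse this small gap. The ranges of all later neighbours in the order overlapped. In WT the medians were 0.277 CPM per kb for Cxcl1, 0.130 for Cxcr2 and 0.0331 for Cxcl2.

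No member was called between NL and WT skin. None of the 5 tested members passed, and 0% of the 19101 genes did with edgeR (1465 had an unadjusted p under 0.05, and DESeq2 called 80). Cxcl2 was higher in both NL libraries than in any WT library, a separation that 18.6% of genes showed, with a fitted difference of 2.00 ± 3.16 (adjusted p = 0.887). The Cxcr2 difference was 0.34 ± 0.92 (adjusted p = 0.938) and that of Cxcl1 1.05 ± 1.29 (adjusted p = 0.852).

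Most of the cytokines known to induce these ligands were called higher in lesional skin. Of 11 listed, 9 were tested and 8 were called higher in L versus WT, beside 23% of all tested genes. The median log2 fold change of the 9 was 4.25, beside 0.061 over all tested genes. In L versus NL 5 were called higher, beside 13.2% of all tested genes, and 0 in NL versus WT. Il17c and Il6 had too few reads to be tested. Il17a and Il17f passed the filter only through their L counts, so the count and the median depend partly on the filter. Without L library 4, 6 of 8 tested were called higher against WT, beside 22.6% of all tested genes. Tnf (adjusted p = 0.0783) no longer passed and Il17a was no longer tested. Il17a, Il17f, Il1a, Il1b, Il36a, Il36b, Il36g and Tnf were the 8 called, and Osm (2.72, adjusted p = 0.0789; 0.00918 with DESeq2) was the gene tested and not called. The list and the lists below were drawn up with earlier results of these libraries known.

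The IL-36 genes, whose products act on keratinocytes, had the lowest adjusted p of the list in L versus WT and stood high in all 4 L libraries. Il36a had 8 to 11 counts in WT, 46 and 7 in NL, and 2163, 1102, 916 and 1440 in L, a rise of 6.97 ± 0.55 over WT (adjusted p = 0.000109). Il36b rose by 4.25 ± 0.39 (adjusted p = 0.000181) and Il36g by 2.82 ± 0.37 (adjusted p = 0.000741). Il1a rose by 1.88 ± 0.39 (adjusted p = 0.00505), and its NL libraries, at 8.83 CPM on average, lay between WT (4.03) and L (14.9).

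Il1b, named here after its values were seen, went with Cxcl2 in L library 4. Its counts were 162, 21 and 98 in WT, 186 and 133 in NL, and 20122, 480, 788 and 736 in L. Library 4 was 27.6-fold above the median of the other L libraries, which were themselves above every WT and NL library. The rise over WT was 5.53 ± 1.66 (adjusted p = 0.0282), and 2.68 ± 0.59 without library 4 (adjusted p = 0.00904).

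The IL-17 genes did not follow library 4. Il17a was at 0 in all WT and NL libraries and had 13, 8, 6 and 49 counts in L, and Il17f had 8, 17, 2 and 35 in L against 1 count in WT and 0 in NL. Library 7 was the highest for both, and also held 45 counts of Il6 against 4 to 7 in the other L libraries. Cxcl1, with 238 counts in library 7, was the member near its top level there.

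**Figure D3:**
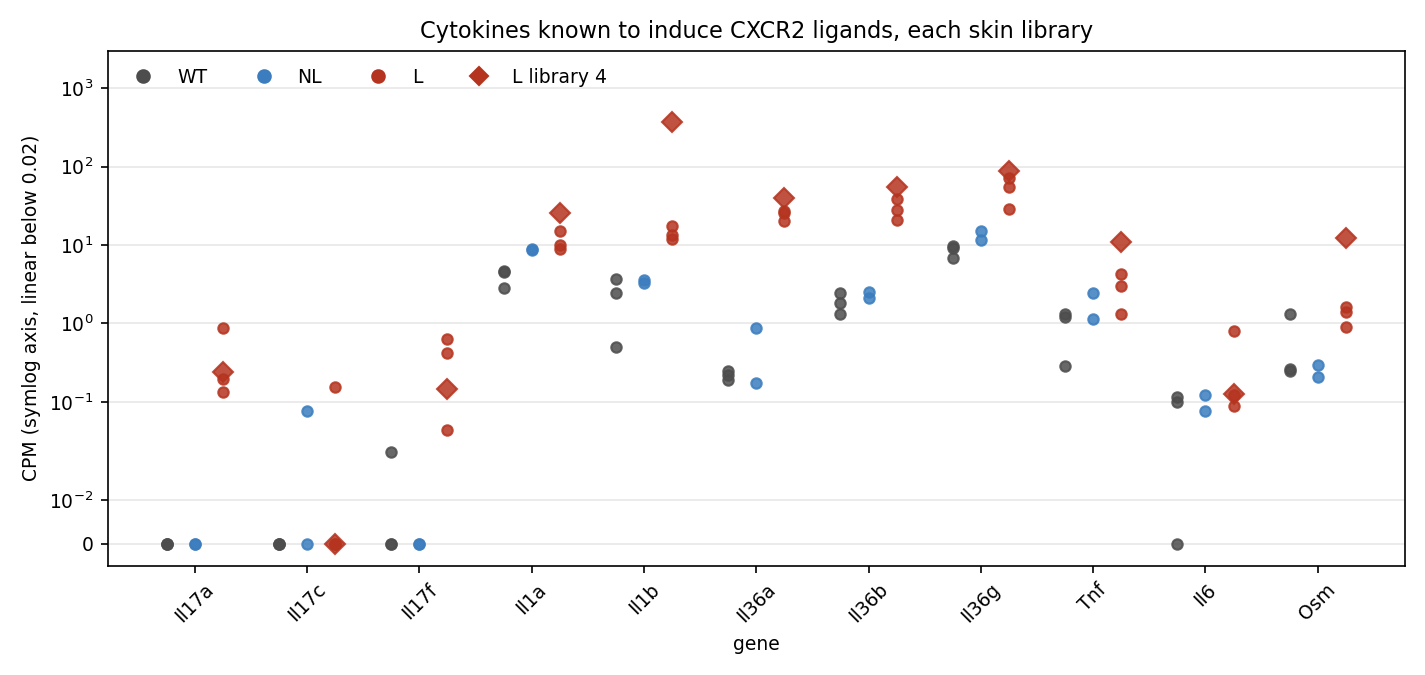
CPM (vertical symlog axis, linear below 0.02) of 11 cytokine genes in each skin library, with WT in grey, NL in blue, L in red and L library 4 as a diamond. Il36a, Il36b and Il36g are high in all 4 L libraries, while Il1b in library 4, at 366 CPM, is far above the rest.

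Of the receptor genes, those for IL-17, IL-1 and IL-36 were listed. None of the 5 passed in L versus WT, with log2 fold changes of -0.17 for Il17ra, 0.48 for Il17rc, -0.036 for Il1r1, 0.28 for Il1rap and 0.41 for Il1rl2 (adjusted p from 0.0551 to 0.89). Among 6 genes of NF-kB feedback and mRNA decay, 2 rose in L versus WT, beside 23% of all tested genes called higher. Zc3h12a, which encodes the RNase regnase-1 that degrades inflammatory mRNAs, rose by 1.82 ± 0.21 (adjusted p = 0.00037), to 26.1 CPM ± 0.934 in L (n = 4) from 7.41 ± 2.34 in WT (n = 3). Nfkbiz, a nuclear cofactor of NF-kB, rose by 1.65 ± 0.34 (adjusted p = 0.00556). The other 4 did not pass, at -0.15 for Nfkbia, 0.15 for Nfkb2, 0.48 for Tnfaip3 and -0.24 for Zfp36. The 2 that rose were also called without library 4.

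The other listed ligands and the ligand scavenger did not rise. Ppbp, a platelet-borne CXCR2 ligand, had 0 to 16 counts in every skin library (log2 fold change in L versus WT -0.11, adjusted p = 0.931). Cxcl15 was at 0 except for 83 counts in WT library 10. Ackr1, the venular receptor that binds these chemokines without signalling, averaged 8.38 CPM ± 4.40 in L (n = 4) and 15.7 ± 2.69 in WT (n = 3), a log2 difference of -0.91 (adjusted p = 0.0817; 0.0331 with DESeq2). Endothelial markers moved with it: 4 of 5 were called lower in L versus WT, with a median log2 fold change of -0.78. Of all tested genes, 43.1% were called in either direction there and 23% were called higher. In L versus NL 1 of 5 was called lower, where 25% of all tested genes were called in either direction and 13.2% higher. The part of the endothelial markers in the Ackr1 value was not tested.

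The receptor for Csf3 followed library 4. Csf3r had 103 to 174 counts in WT, 108 and 95 in NL, and 1712, 125, 283 and 402 in L, with a fitted difference of 1.96 ± 0.75 against WT (adjusted p = 0.0664; 0.00809 with DESeq2). Library 4 was 5.00-fold above the median of the other L libraries. Csf2 (log2 fold change 0.65), Csf2ra (-0.090) and Csf2rb (0.17), the ligand and receptor chains of GM-CSF, did not pass (adjusted p from 0.554 to 0.828).

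Of 8 genes for adhesion of neutrophils to vessels, 1 passed. Itgal, an integrin chain that lymphocytes also carry, rose by 1.28 ± 0.24 (adjusted p = 0.00317). Icam1 (0.71, adjusted p = 0.0587; 0.0375 with DESeq2), Selplg (0.66, adjusted p = 0.0808) and Cd177 (1.54, adjusted p = 0.281) followed in the order of p and did not pass, and neither did Sele, Selp, Itgam or Itgb2. Of 6 genes for other neutrophil attractants, 4 rose in L versus WT: the formyl peptide receptors Fpr1 (91, 17, 34 and 12 counts in L and 2 in all of WT, adjusted p = 0.0135) and Fpr2 (3.06, adjusted p = 0.0193), the leukotriene B4 receptor Ltb4r1 (7.94 CPM in L and 3.23 in WT, adjusted p = 0.0361) and the leukotriene A4 hydrolase Lta4h (0.29, adjusted p = 0.0428; 0.0565 with DESeq2). C5ar1 (-1.08) and Alox5ap (-0.26) did not pass. Against NL 1 of the 6, Fpr2, was called (3.59, adjusted p = 0.0368). Over all tested genes, 23% were called higher against WT and 13.2% against NL. Fpr1, with 10 and 0 counts in NL, passed the filter only through L, so the count of 4 depends partly on the filter. Without library 4, 3 of the 6 were called against WT, Ltb4r1 being lost (adjusted p = 0.0764).

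Neutrophil markers were read beside the members. Of 12 listed, 9 were tested and 3 were called higher in L versus WT (Padi4, Mpo and Camp), beside 23% of all tested genes. Camp, with 0 to 2 counts in WT and NL, passed the filter only through L. The 12 summed to 38.9 to 50.4 CPM in L, 4.62 and 8.07 in NL and 3.79 to 6.60 in WT, and most of the L sum was Padi4, a peptidylarginine deiminase, with 20.7 CPM in library 4 and 34.5 to 45.1 in the other 3. The other 11 markers, summed after this was seen, gave 24.2 CPM in library 4 and 4.41 to 5.51 in libraries 5 to 7, against 1.12 to 3.29 in WT and 1.36 to 2.50 in NL. Of the 12 markers, 7 had their highest L value in library 4, among them Stfa2l1 with 530 counts against 4 to 32 and Mrgpra2b with 258 against 0 to 8. Padi4, Mpo, Camp, Ngp and Elane did not. Mpo was lowest there, with 33 counts against 48 to 166 in the other L libraries, and Camp had 17 against 5 to 58.

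Ly6g, the defining surface marker, had 11 counts in library 4 and 3, 0 and 1 in libraries 5, 6 and 7, against 0 to 1 in WT. In those 3 libraries Cxcr2 had 343 to 443 counts, with Ly6g at or near 0. Ly6g was also low in library 4 beside its 1641 Cxcr2 counts, so its low counts do not set libraries 5, 6 and 7 apart. With library 4 left out, 7 of the listed markers could be tested. Of these, Padi4, Mpo and Camp were called higher against WT, beside 22.6% of all tested genes, and none was called lower. Whether neutrophils carried the Cxcr2 of these libraries was not tested. The 7 markers highest in library 4 rose with Cxcl2, Cxcl3, Csf3, Cxcr1 and Csf3r there, and their part in those values was not tested. Library 4 also had the lowest hair shaft sum among the L libraries (5589 CPM) and the highest skeletal muscle sum (7842 CPM). The part of the hair shaft, muscle and endothelial content in the L values was not tested either.

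**Figure D4:**
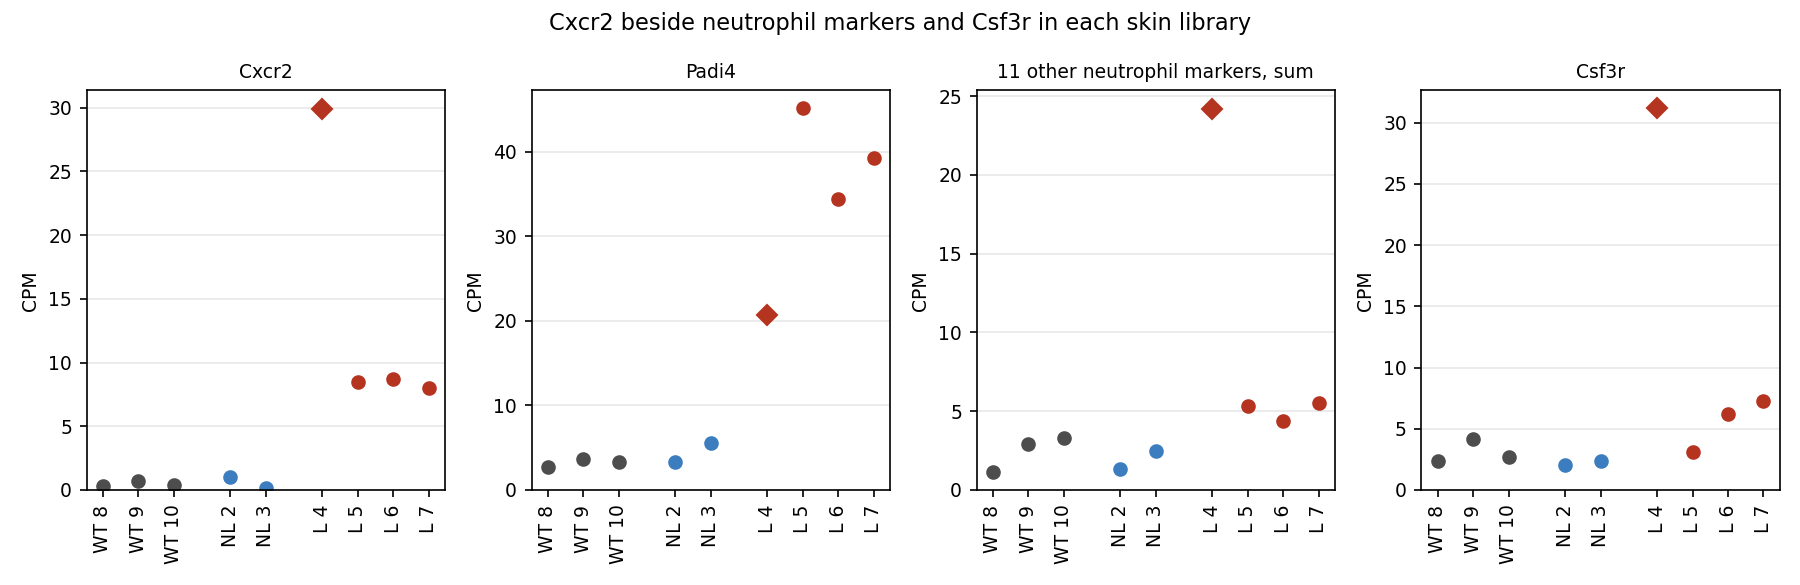
CPM (vertical axes from 0) of Cxcr2, Padi4, the sum of the 11 other neutrophil markers, and Csf3r in each skin library (WT grey, NL blue, L red, library 4 a diamond). The sum of the 11 markers and the level of Csf3r are highest in library 4 (24.2 and 31.2 CPM), while Padi4 is higher in libraries 5 to 7 than in library 4. Within the sum, Mpo, Camp, Ngp and Elane did not have their highest L value in library 4.

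The genes most like each tested member over the 9 skin libraries, by Pearson's r of log2(CPM + 0.5), are a description with no test, and the points share the 3 groups. Cxcl2 and Cxcl3 were each other's neighbours (r = 0.991), with Cstdc4 (0.988 and 0.993) near both, followed by Mmp10 for Cxcl2 (0.984) and Mirt2 for Cxcl3 (0.990). Cxcl5 was most like Saa2 (0.989) and Saa1 (0.978), acute-phase genes, and Gad1-ps (0.966). Cxcr2 was most like Sptbn4 (0.997), Gm15832 (0.995) and Sprr2g (0.987), the last a small proline-rich protein gene of the cornified envelope. Cxcl1 was most like Tinf2 (0.961), Odf2l (0.941) and Gm24474 (0.938), none of which was among the 3 genes most like another member.

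In the lymph nodes the members were low, and none passed the test in any comparison. Cxcr2 was the one with steady counts: 86, 121 and 58 in WT NoTx, 109, 179 and 135 in TG NoTx, 94, 49 and 57 in WT UVTx, and 71, 46 and 117 in TG UVTx. The 3 TG NoTx libraries (2.94 to 5.08 CPM) were above the 3 WT UVTx libraries (1.75 to 2.82 CPM), a pair that differs in both genotype and treatment and was not tested; every other pair of groups overlapped. Mean levels ran from TG NoTx (3.97 CPM ± 1.07, SD, n = 3) through WT NoTx (2.72 ± 1.01) and TG UVTx (2.41 ± 1.04) to WT UVTx (2.12 ± 0.611), and no neighbours in this order differed beyond the spread. These CPM were scaled apart from those of skin.

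The largest Cxcr2 difference in the nodes by size was a fall after UVB in TG mice, -0.71 ± 0.36 on the log2 scale (edgeR unadjusted p = 0.0646, adjusted p = 0.553). After UVB in WT it was -0.36 ± 0.36 (adjusted p = 0.559), and the interaction of UVB and genotype was -0.35 ± 0.51 (adjusted p = 0.907). TG against WT gave 0.54 ± 0.35 without UVB (adjusted p = 1) and 0.19 ± 0.36 after it (adjusted p = 0.923). None of these passed.

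Cxcr1 had 3, 3 and 13 counts in WT NoTx, 15, 3 and 11 in TG NoTx, 5, 1 and 3 in WT UVTx, and 10, 5 and 9 in TG UVTx. The other 3 comparisons of groups gave adjusted p from 0.446 to 1, and the interaction was 0.89 ± 1.04 (adjusted p = 0.886). After UVB every TG library was above every WT library in CPM, which 5.31% of tested genes showed, with a difference of 1.35 ± 0.78 (adjusted p = 0.753). Cxcl1 had 0 to 12 counts in every node library, and its differences ranged from -1.01 to 0.27 over the 4 comparisons of groups (adjusted p from 0.748 to 1), with an interaction of -1.11 ± 1.15 (adjusted p = 0.871).

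The remaining ligands and Csf3 were at the floor of detection in the nodes. Cxcl2 had 0 to 3 counts, Cxcl3 0 to 4, Csf3 0 to 5, and Cxcl5 had 1 count in 1 of the 12 libraries. Cxcl3 was at 0 in all 6 UVTx libraries. Such counts are within the 3 that a count of 0 allows or just above it, and no difference was detectable at this depth.

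Background calls in the nodes were 4.98% for UVB in WT and 0% with edgeR for UVB in TG, for both comparisons of TG with WT and for the interaction. Genes with an unadjusted p under 0.05 in those 4 numbered 1507, 549, 1131 and 881, and DESeq2 called 137, 2, 19 and 8. Of the 43 listed pathway genes 29 were tested, and 1 was called in any node comparison: Zc3h12a after UVB in WT, from 13.1 CPM ± 0.358 to 22.3 ± 0.384 (n = 3 each), a rise of 0.76 ± 0.15 (adjusted p = 0.0261). No gene was called in that comparison without WT UVTx library 8. The 12 neutrophil markers summed to 0.214 to 3.27 CPM over all 12 node libraries, with Ly6g at 0 to 3 counts.

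**Figure D5:**
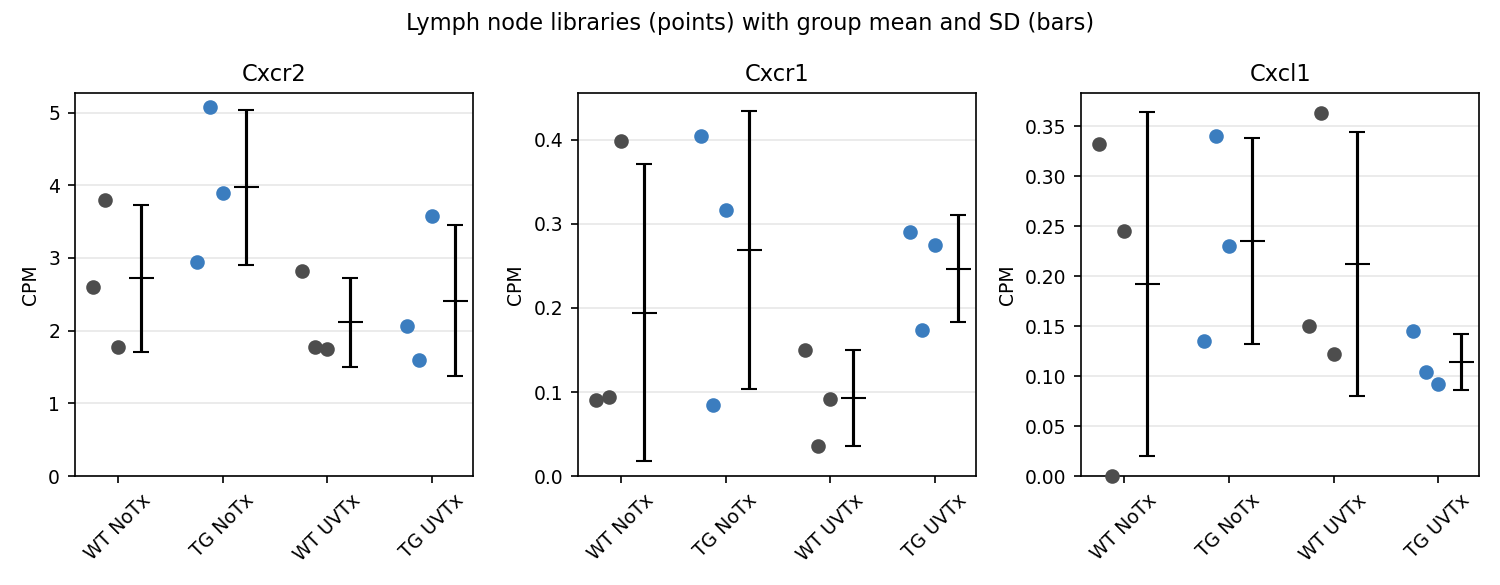
CPM (vertical axes from 0) of Cxcr2, Cxcr1 and Cxcl1 in each lymph node library (points, WT grey and TG blue) for 4 groups of 3, with the group mean and SD as bars. In Cxcr2 the 3 TG NoTx libraries are above the 3 WT UVTx libraries, and in Cxcr1 the 3 TG UVTx libraries are; the other groups overlap in Cxcr2, as all do in Cxcl1.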

How the data were processed

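Poly-A RNA of 9 skin and 12 inguinal lymph node libraries was sequenced. Per the labels and the study's methods, the authors trimmed reads with cutadapt 4.8, aligned them with STAR 2.7.8a to GRCm38 and estimated gene counts with RSEM 1.3.3, with FastQC 0.11.8 and MultiQC 1.20 for quality; the annotation release is not given in the sources used here. The deposited tables hold expected counts (here all whole numbers) for 55491 genes; RSEM shares reads among similar genes, which affects Cxcl1, Cxcl2 and Cxcl3.

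Groups came from the labels. Each tissue was fitted on its own with edgeR 4.0.16 (R 4.3.3): filterByExpr by group, TMM scaling, and the robust quasi-likelihood F-test over all libraries of the tissue, with Benjamini-Hochberg adjustment over all tested genes and a threshold of 0.05. CPM used the same scaling, and exon lengths came from GENCODE M21. The scripts were tested on simulated counts. Alternatives were DESeq2 1.42.0, RLE scaling, other filters, the compared groups alone, fits without robust estimation, other-tissue genes left out, and each library left out in turn. Leaving L library 4 out of the list counts and Padi4 out of the marker sum were chosen after seeing the data. Role lists (11 genes or fewer) were given in full up to 6 genes and otherwise by the 4 smallest p in L versus WT; likeness named 3 genes per tested member. Il36a, Il36b and Il36g were matched through RefSeq synonyms. The members and lists were chosen with earlier results of these data known.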

Additional observations from a re-analysis of the deposited data

Results flagged for a closer look

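Among the 4 lesional libraries, 5 of the 7 members had library 4 so far above the others that its gap to the next library, divided by the whole range, passed Dixon's 95% critical value for 4 samples. The ratio was 0.991 for Cxcl2, 0.985 for Csf3, 0.968 for Cxcr2, 0.966 for Cxcl3 and 0.942 for Cxcr1, in CPM. Chance flags about 1 in 20 groups if values are normally distributed, which was not tested for these CPM. These 5 flags share the same library. Genes outside the members peaked there too. Of the 11 inducing cytokines, 7 had their highest L value in library 4, among them Il1b at 366 CPM against 11.8 to 17.4. The share of all tested genes with this flag was not computed, so the 5 flags cannot show that the members stood out. Cxcl1 and Cxcl5 were not flagged, since library 7 lay near library 4 for Cxcl1 and between it and the rest for Cxcl5.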

How the results depend on the processing

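No paired analysis was possible because the labels name no mouse, so whether libraries of different groups share an animal is not known. Over the alternatives, 443 member fold changes kept direction and side of the threshold, 6 passed newly, 8 no longer passed and 11 changed sign, none of the last being called. The 2 members called in L versus WT became 1 (Cxcr2) with no filter on low counts and 1 with the groups fitted alone, and ranged from 1 to 3 when a library was left out; with DESeq2 the 2 called were Cxcr2 and Cxcl5. The 1 member called in L versus NL became 2 with DESeq2 and ranged from 0 to 2 when a library was left out. With 10 counts required in every library no member was tested in skin and 1 in the nodes. Sign changes came from leaving out a library: log2 fold changes ranged from -4.01 to 0.28 for Cxcl5 and -1.93 to 1.11 for Cxcr2 in NL versus WT, -0.49 to 0.71 for Cxcl1 and -1.51 to 0.019 for Cxcr1 after UVB in WT nodes, -0.54 to 0.30 for Cxcr1 after UVB in TG nodes, -0.30 to 0.90 for Cxcl1 between untreated genotypes, -0.21 to 0.45 for Cxcr2 between genotypes after UVB, and -0.14 to 1.39 for the Cxcr1 interaction. Over all genes, L versus NL calls of 4782 became 3156 with the groups alone, 1470 without NL library 2 and 1182 without NL library 3; UVB in WT nodes calls of 805 became 2002 with DESeq2, 2431 with the groups alone, and 0 to 2644 when a library was left out. The 80 genes DESeq2 called in NL versus WT compare with 0 in edgeR. UVB in TG nodes went from 0 to 236 without TG UVTx library 12. The causes were not tested. With 0 to 5 counts per node library, the levels of Cxcl2, Cxcl3, Cxcl5 and Csf3 there are limited by depth.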
